A study of Mus musculus with 30 samples.

Results

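Replication and mitosis genes are the transcripts that cells make mainly while they divide. Here they are 42 genes of 36047 annotated mouse genes, 17 of them acting in S phase and 25 in mitosis. The members were chosen by name and function, with earlier results of these data known. They were read in bulk mRNA libraries of NIH3T3-CG cells, a line of mouse embryonic fibroblasts whose suffix the labels do not explain. The 30 libraries form 10 groups of 3. The first group held cells transduced with Prrx1 and given doxycycline, set against transduced cells without doxycycline. Cells transfected with a plasmid for the homeobox factor Prrx1 or for the zinc finger factor Snai1 shared 1 group of controls. Cells transfected with a plasmid for Egr1 or Jun, both immediate early factors, shared a second group of controls. Cells transfected with a plasmid for Srebf2, the regulator of cholesterol synthesis, had controls of their own. Controls of the transfections received a control plasmid. No group received doxycycline without the Prrx1 construct, so doxycycline and Prrx1 cannot be told apart in the transduced cells. The labels do not give the time after transfection, the share of cells that took up a plasmid, or whether replicates were separate cultures, so the spread behind each p-value may be technical.

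Dividing cells copy their DNA in S phase and part it in mitosis, and the genes for each stage are switched on in turn. E2F factors, held back by pocket proteins of the retinoblastoma family, drive the S phase genes. The MuvB complex, first as the repressor DREAM and later with B-Myb and FoxM1, drives the mitotic genes through a promoter element called CHR. CCAAT boxes bound by NF-Y are common in both sets and most of all in mitotic promoters.

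These promoter elements were visible in the members' own sequences, which is why 6 promoters are printed here. Windows of 300 bases, 250 before and 50 after an annotated start, were available from RefSeq (GRCm38.p6) for 15 of the 17 S phase members and 21 of the 25 mitotic members. They numbered 17 and 23, and a match in any window of a gene was counted for that gene. These starts can differ from those of the GENCODE annotation used for the counts. The E2f1 window, for example, lies within the GENCODE gene. The letters searched on both strands were TTTCCCGC, TTTGGCGC, TTTCGCGC and TTTGCCGC for E2F, TTTGAA for CHR and CCAAT for the CCAAT box. Overlapping matches were counted separately. An E2F match was found in 8 of 15 S phase members and in 1 of 21 mitotic members, Cdk1, against 2.60% of all 27025 genes with a window. A CHR match was found in 1 of 15 S phase members, Mcm2, and in 15 of 21 mitotic members, against 20.2% of all genes. A CCAAT match was found in 11 of 15 S phase members and 18 of 21 mitotic members, against 41.1% of all genes. A match of letters is a description of the sequence and not a measured binding site. In the lines that follow the capitals mark these matches, and each sequence runs 5′ to 3′ on the strand of its gene. The first 3 belong to mitotic members that were higher with Srebf2, the next to the mitotic member Cdc20 that was not, and the last 2 to the helicase subunits Mcm6, higher with Srebf2, and Mcm3, which was not.
Ube2c, chr2:164769679-164769978, plus strand: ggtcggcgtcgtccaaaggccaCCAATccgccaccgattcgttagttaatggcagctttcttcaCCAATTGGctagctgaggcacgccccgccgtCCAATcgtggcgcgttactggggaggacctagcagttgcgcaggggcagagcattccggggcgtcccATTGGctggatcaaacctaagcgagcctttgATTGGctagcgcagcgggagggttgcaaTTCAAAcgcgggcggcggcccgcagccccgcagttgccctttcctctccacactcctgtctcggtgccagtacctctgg
Top2a, chr11:99024140-99024439, minus strand: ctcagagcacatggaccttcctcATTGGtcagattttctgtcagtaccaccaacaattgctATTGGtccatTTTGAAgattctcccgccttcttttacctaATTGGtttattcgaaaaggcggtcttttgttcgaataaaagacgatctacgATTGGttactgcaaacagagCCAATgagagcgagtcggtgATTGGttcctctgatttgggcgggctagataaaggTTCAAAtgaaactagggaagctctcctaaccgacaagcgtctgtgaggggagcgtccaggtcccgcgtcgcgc
Hmmr, chr11:40733388-40733687, minus strand: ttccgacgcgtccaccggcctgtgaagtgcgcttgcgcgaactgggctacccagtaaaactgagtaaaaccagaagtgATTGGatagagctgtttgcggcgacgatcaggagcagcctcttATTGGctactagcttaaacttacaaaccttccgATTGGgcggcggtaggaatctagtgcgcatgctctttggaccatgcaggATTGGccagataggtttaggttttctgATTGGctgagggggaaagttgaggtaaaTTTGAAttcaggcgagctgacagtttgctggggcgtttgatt
Cdc20, chr4:118437294-118437593, minus strand: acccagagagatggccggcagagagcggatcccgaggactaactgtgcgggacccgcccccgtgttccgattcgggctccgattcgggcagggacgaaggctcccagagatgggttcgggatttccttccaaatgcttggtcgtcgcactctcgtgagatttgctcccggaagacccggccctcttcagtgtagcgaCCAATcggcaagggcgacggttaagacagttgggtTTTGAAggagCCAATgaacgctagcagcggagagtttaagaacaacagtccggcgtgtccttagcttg
Mcm6, chr1:128359656-128359955, minus strand: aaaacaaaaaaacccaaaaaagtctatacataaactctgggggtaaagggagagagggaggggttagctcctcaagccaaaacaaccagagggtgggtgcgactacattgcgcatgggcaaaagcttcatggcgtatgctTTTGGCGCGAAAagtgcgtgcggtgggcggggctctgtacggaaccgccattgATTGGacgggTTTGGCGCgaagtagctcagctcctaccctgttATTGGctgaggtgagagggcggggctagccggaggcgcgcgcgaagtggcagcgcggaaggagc
Mcm3, chr1:20820263-20820562, minus strand: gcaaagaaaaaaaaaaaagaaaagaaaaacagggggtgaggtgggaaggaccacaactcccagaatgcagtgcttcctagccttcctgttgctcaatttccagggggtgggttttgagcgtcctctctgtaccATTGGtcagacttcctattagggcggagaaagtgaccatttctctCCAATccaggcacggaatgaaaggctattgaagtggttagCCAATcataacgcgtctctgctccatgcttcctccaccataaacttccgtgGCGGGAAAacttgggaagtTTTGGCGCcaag
Top2a and Ube2c each held 6 CCAAT matches, the most of any member, and Hmmr held 5. Mcm6 held 3 E2F matches, 2 of which overlap.

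Each library held 7996355 to 37068611 estimated counts, the fewest in the transduced cells. The delivered factor was higher in its own group in each of the 6 comparisons, from 3.86-fold for Prrx1 with doxycycline and 4.19-fold for Srebf2 to 123-fold for Snai1. The 10 fibroblast markers summed to 8604 to 14130 TPM (a level scaled by transcript length) over all libraries. The 5 endothelial markers reached at most 19.8 TPM and the 6 immune markers at most 20.4 TPM. The 6 epithelial markers stayed under 10 TPM except in Egr1 replicate 3, which held 185 TPM, and the 6 neural markers reached 52.7 TPM in the Jun and Egr1 control replicate 2. Values for Egr1 without its replicate 3 are given below.

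All 42 members passed the filter on low counts in every comparison. In the control-plasmid cells of the Srebf2 experiment, mean levels ranged among S phase members from 13.9 TPM for Cdc6, a loader of the replicative helicase, to 149 TPM for Pcna, the sliding clamp of DNA polymerases. Among mitotic members they ranged from 13.2 TPM for Ccnb2, cyclin B2, to 357 TPM for Top2a, the topoisomerase that untangles sister chromatids. Top2a and Pcna had the highest level of their set in each of the 10 groups. Below, levels are CPM, counts relative to library size scaled within each experiment, and a gene is called higher or lower at an adjusted p under 0.05 over all genes tested in that comparison.

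**Figure D1:**
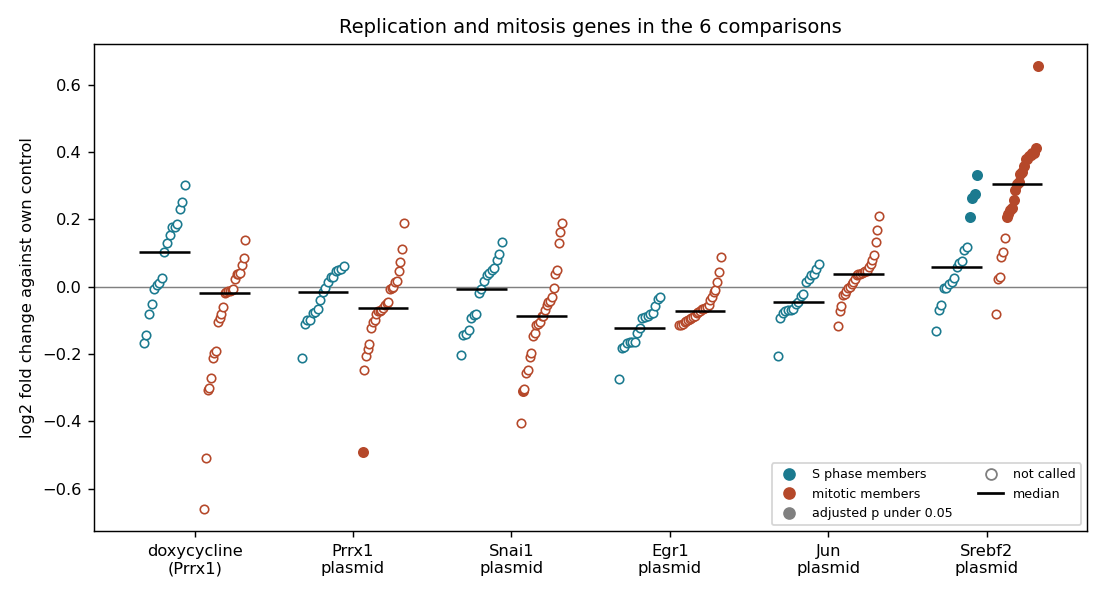
Log2 fold change of each of the 17 S phase and 25 mitotic members in the 6 comparisons, each group against its own control, with 3 libraries per group. Filled points passed an adjusted p under 0.05 and black lines are medians. With Srebf2 the mitotic median stood at 0.30 and 19 mitotic members were called higher, while in the other 5 comparisons the medians lay between -0.12 and 0.10.

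With Srebf2 most mitotic members were higher. Of the 25 mitotic members 19 were called higher and 0 lower, against 8.40% of all 12728 tested genes called higher. Their median log2 fold change was 0.30, against 0.00 over all tested genes. In 17 of the 25 the 3 Srebf2 libraries all lay above the 3 controls, against 17.6% of all genes. The summed level of the mitotic members was 4236 ± 330 CPM with Srebf2 and 3430 ± 210 CPM in the controls (SD, n = 3 each). In bulk RNA a larger share of dividing cells and more RNA per dividing cell cannot be told apart.

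Several called members act at the spindle and kinetochore. Hmmr, a spindle-associated protein, stood at 121, 141 and 133 CPM with Srebf2, against 102, 97.0 and 98.3 CPM in the controls. The groups did not overlap, and the log2 fold change was 0.41 (standard error 0.06, adjusted p = 0.00032). Kif11, the motor that pushes spindle poles apart, stood at 90.2, 103 and 92.7 CPM with Srebf2, against 77.3, 67.3 and 72.4 CPM in the controls. Its log2 fold change was 0.40 (adjusted p = 0.000637), with every Srebf2 library above every control. Cenpk, an inner kinetochore protein and the member with the largest log2 fold change, 0.65 (standard error 0.14), was also among the least abundant. It stood at 7.50, 8.69 and 8.39 CPM with Srebf2, against 4.64, 5.45 and 5.52 CPM in the controls (adjusted p = 0.00392). Cenpe, a kinetochore motor, and Cenpf rose by 0.38 and 0.36, and the spindle proteins Nusap1 and Tpx2 by 0.38 and 0.26 on the log2 scale.

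Genes of chromosome structure and of the cyclins moved with them in part. Top2a stood at 1169, 1334 and 1081 CPM with Srebf2, against 996, 844 and 882 CPM in the controls. Its log2 fold change was 0.40 (standard error 0.08, adjusted p = 0.00564), and the groups did not overlap. Mki67, the coat protein of mitotic chromosomes used as a marker of proliferation, stood at 310, 317 and 252 CPM with Srebf2, against 237, 226 and 231 CPM in the controls. All 3 Srebf2 libraries were above the controls (log2 fold change 0.34, adjusted p = 0.00747). Ccna2, cyclin A2, which drives S phase and entry into mitosis, stood at 195, 233 and 206 CPM with Srebf2, against 171, 155 and 158 CPM in the controls. Its log2 fold change was 0.39 (adjusted p = 0.000744), and 88% of its 31-mers occur in no other gene. Ccnb1, cyclin B1, stood at 105, 117 and 109 CPM with Srebf2, against 103, 92.3 and 86.7 CPM in the controls. The lowest Srebf2 library was barely above the highest control, and the log2 fold change was 0.23 (adjusted p = 0.0231, 72.2% unique 31-mers).

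The checkpoint kinases and the machinery of mitotic exit were divided. Bub1, a kinase of the spindle checkpoint, stood at 108, 122 and 121 CPM with Srebf2, against 97.6, 81.9 and 88.7 CPM in the controls (log2 fold change 0.39, adjusted p = 0.00129). Ttk, the kinase at the head of the same checkpoint, rose by 0.31, while the pseudokinase Bub1b was not called (0.14, adjusted p = 0.178). Ube2c, the ubiquitin-conjugating partner of the anaphase-promoting complex, stood at 130, 155 and 142 CPM with Srebf2, against 131, 111 and 108 CPM in the controls. The lowest Srebf2 library lay below the highest control, yet the gene was called higher (log2 fold change 0.29, adjusted p = 0.0296, 75% unique 31-mers). Cdc20, the activator of the same complex, stood at 141, 155 and 140 CPM with Srebf2, against 169, 145 and 147 CPM in the controls. The groups overlapped and the log2 fold change was -0.08 (95% interval -0.21 to 0.05, adjusted p = 0.399, 73.3% unique 31-mers).

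Cdk1, the mitotic kinase itself, was not called. It stood at 112, 129 and 110 CPM with Srebf2, against 117, 106 and 104 CPM in the controls, and the groups overlapped (log2 fold change 0.10, 95% interval -0.04 to 0.24, adjusted p = 0.306). The other mitotic members that were not called were the kinases Plk1 (0.03) and Aurkb (0.09) and the cyclin Ccnb2 (0.02). Aurka, a kinase of the spindle poles, was called at 0.22 (adjusted p = 0.0467) although its groups overlapped. Among the remaining called members were Anln (0.34), a scaffold of the contractile ring, Kif23 (0.30) and Kif20a (0.21), motors of the central spindle, and Birc5 (0.23), survivin.

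**Figure D2:**
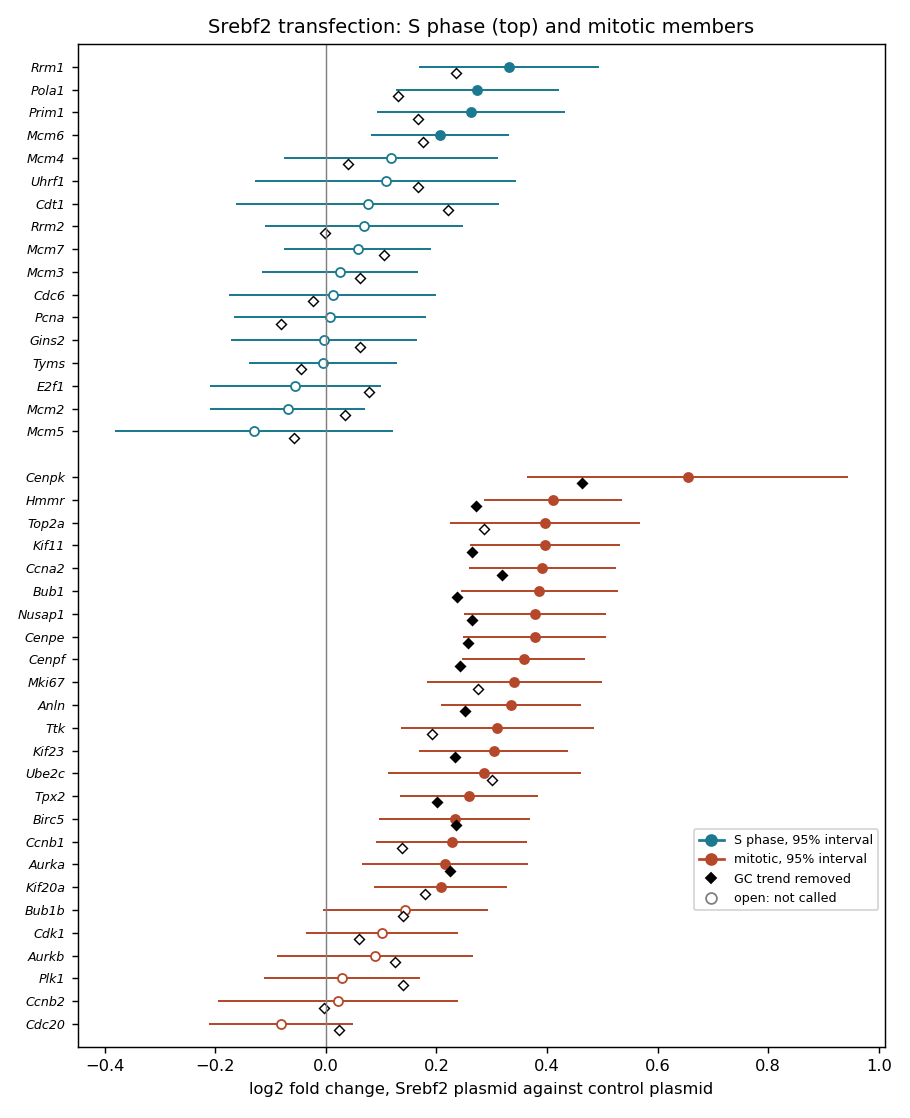
Log2 fold change of every member with the Srebf2 plasmid against the control plasmid, S phase members above and mitotic members below, with 95% intervals (3 libraries per group). Filled symbols were called at an adjusted p under 0.05, and diamonds give the estimate after the GC trend of each library was removed, which left 13 mitotic and 0 S phase members called.

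S phase members were called higher with Srebf2 in 4 of 17 genes and lower in 0, where 1069 of all 12728 tested genes were called higher. Their median log2 fold change was 0.06, and their summed level was 1819 ± 104 CPM with Srebf2 and 1709 ± 188 CPM in the controls (SD, n = 3 each). Rrm1, the large subunit of ribonucleotide reductase, stood at 218, 252 and 224 CPM with Srebf2, against 207, 172 and 173 CPM in the controls. The groups did not overlap (log2 fold change 0.33, standard error 0.08, adjusted p = 0.0106). Both subunits named for primer synthesis were called. Pola1, the catalytic subunit of polymerase alpha, stood at 62.1, 66.6 and 63.4 CPM with Srebf2, against 59.5, 48.2 and 51.2 CPM in the controls (log2 fold change 0.27, adjusted p = 0.0134). Prim1, its primase partner, stood at 26.9, 28.5 and 26.2 CPM with Srebf2, against 24.1, 21.0 and 22.9 CPM in the controls (log2 fold change 0.26, adjusted p = 0.0316). Mcm6, a subunit of the replicative helicase, stood at 153, 163 and 154 CPM with Srebf2, against 150, 131 and 128 CPM in the controls (log2 fold change 0.21, adjusted p = 0.0239).

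The other 13 S phase members were not called. Mcm5, from the same helicase ring as Mcm6, stood at 79.8, 91.1 and 78.4 CPM with Srebf2, against 107, 85.5 and 80.5 CPM in the controls (log2 fold change -0.13, 95% interval -0.38 to 0.12, adjusted p = 0.466). The remaining ring subunits Mcm2, Mcm3, Mcm4 and Mcm7 ranged from -0.07 to 0.12. Pcna stood at 122, 145 and 136 CPM with Srebf2, against 151, 125 and 126 CPM in the controls (log2 fold change 0.01, adjusted p = 0.966, 76.7% unique 31-mers). Rrm2, the small subunit of ribonucleotide reductase, whose level limits the enzyme, had a log2 fold change of 0.07 (95% interval -0.11 to 0.25, 87.2% unique 31-mers). E2f1, the transcription factor, had one of -0.06 (95% interval -0.21 to 0.10). The spread of the controls was wide: control replicate 1 held a summed S phase level of 1925 CPM, against 1590 and 1610 CPM in the other 2 controls.

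The call depended on the libraries and on GC content. Leaving out 1 library at a time gave 11 to 25 members called higher and none lower. Without control replicate 2, 11 mitotic and 0 S phase members were called (3.20% of all genes), and without Srebf2 replicate 2, 12 mitotic members and 1 S phase member (4.11% of all genes). Rrm1 and Mki67 were called in 5 of the 6 such fits, Pola1 and Mcm6 in 3, and Prim1, Ccnb1 and Ube2c in 2. The 11 members called in each of these fits were Anln, Bub1, Ccna2, Cenpe, Cenpf, Cenpk, Hmmr, Kif11, Kif23, Nusap1 and Top2a. In a fit of all 30 libraries 8 mitotic members and 1 S phase member were called (1.52% of all genes), and limma on log2(TPM + 1) called 9 mitotic members and 1 S phase member (5.49% of all genes). Mitochondrial transcripts made up 3.76 ± 0.17% of counts with Srebf2 and 3.05 ± 0.17% in the controls (SD, n = 3 each), and their part in the result was not tested.

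Over all 12715 genes with a GC value, the log2 fold change with Srebf2 fell with the GC content of the transcript. With the genes in 5 equal groups by GC content, the median was 0.14 in the lowest group and -0.14 in the highest. The share of genes called higher was 21.2%, 13.6%, 4.48%, 1.97% and 0.747% from the lowest to the highest group, and 8.84% of all genes were called lower. Mitotic members are poor in GC, with a median of 46.3%, against 49.0% for S phase members. In the lowest 2 groups 15 of 15 mitotic members and 3 of 6 S phase members were called higher. In the middle group 4 of 7 mitotic members and 1 of 3 S phase members were called, and in the highest 2 groups 0 of 3 and 0 of 8. After the GC trend of each library was removed, a choice made after seeing the data, 13 mitotic and 0 S phase members were called (3.80% of all genes). The mitotic median was then 0.24 and the S phase median 0.06. Hmmr was still called, at 0.27, whereas Top2a (0.29, adjusted p = 0.089) and Mki67 (0.28, adjusted p = 0.0761) were not, nor were Ube2c, Ccnb1, Ttk and Kif20a.

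**Figure D3:**
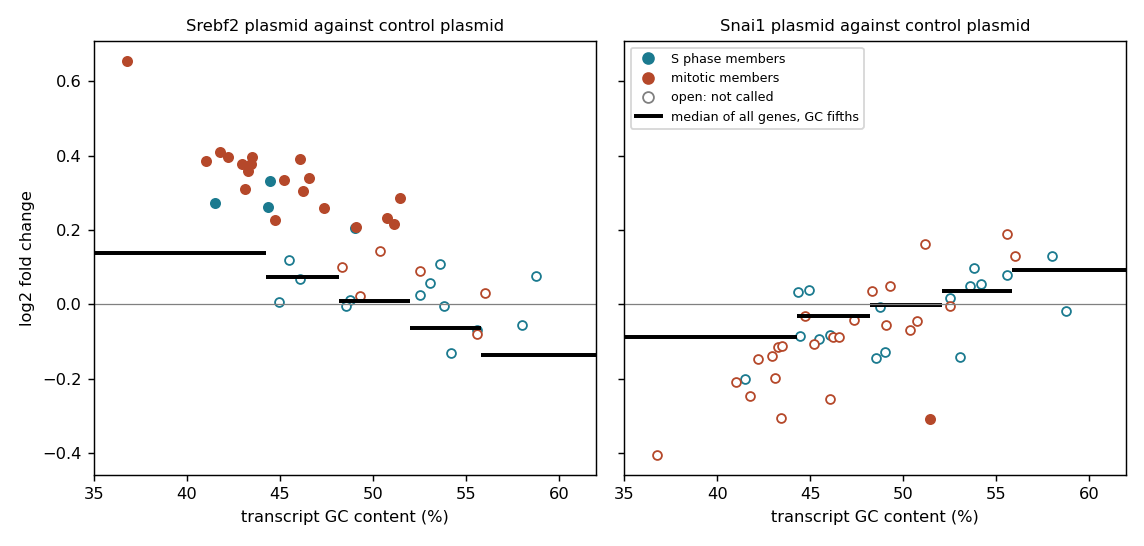
Log2 fold change of the members against the GC content of their transcripts, with the Srebf2 plasmid (left) and the Snai1 plasmid (right), each against its own control plasmid. Black bars give the median of all genes in each of 5 equal groups by GC content, 0.14 to -0.14 with Srebf2 and -0.09 to 0.09 with Snai1, so the trend runs in opposite directions in these 2 comparisons.

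Other cell cycle genes, from lists by function that are not part of the 42, were counted beside the members. Their counts are to be read against the 8.40% of all genes called higher and the 8.84% called lower. The share called higher ran from 21.2% in the lowest GC group to 0.747% in the highest, and these lists were not split by GC content. Of 47 other genes of the spindle, kinetochore and cytokinesis 27 were called higher with Srebf2 and 0 lower, with a median log2 fold change of 0.28. Kif20b, a cytokinesis motor, was at 159 ± 8.17 CPM with Srebf2 and 113 ± 4.12 CPM in the controls (log2 fold change 0.50, adjusted p = 2.51e-05). Melk (0.45), Knl1 (0.43) and Kif18a (0.43) followed. Of 15 kinases and phosphatases of the step from G2 to mitosis, which include subunits of the anaphase-promoting complex, 4 were called higher: Mastl (0.39), Haspin (0.28), Cdc27 (0.25) and Anapc1 (0.15). Of 18 tested genes for E2F, pocket and MuvB proteins 6 were called higher, among them the MuvB subunits Lin9 (0.48) and Lin54 (0.43) and the pocket proteins Rb1 (0.30) and Rbl1 (0.29). Of 40 other origin and fork genes 4 were called higher, a share near that of all genes, namely Pole2 (0.39), Orc3 (0.28), Dbf4 (0.26) and Prim2 (0.22), and of 10 other genes of deoxynucleotide supply 0 were called, by edgeR or by DESeq2, with 2 lower at an unadjusted p under 0.05, against 15.3% of all genes. Of 4 tested CDK inhibitors 1 was called, Cdkn1a, which encodes p21. It was lower, at 231 ± 6.56 CPM with Srebf2 and 278 ± 9.86 CPM in the controls (log2 fold change -0.27, adjusted p = 0.0015).

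The promoter elements were counted by call. Among mitotic members with a window, a CHR match was found in 10 of 16 that were called higher with Srebf2 and in 5 of 5 that were not called. The sterol element TCACNCCAC, searched after the result was known, was in no member's window and in 1.44% of all genes.

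The difference between Srebf2 and the other transfections was tested directly, in a contrast chosen after seeing the data. The Srebf2 effect minus the mean effect of Prrx1, Snai1, Egr1 and Jun, fitted over 24 transfection libraries, was above 0 at an adjusted p under 0.05 in 12 mitotic and 2 S phase members, against 5.18% of all 14200 genes, and below 0 in none. The largest differences among well expressed members were in Ccna2 (log2 difference 0.53, standard error 0.09), Hmmr (0.53, standard error 0.09), Nusap1 (0.49) and Ube2c (0.49). Part of the difference in Ccna2 and Ube2c lay in the other transfections. Ccna2 was at 0.39 with Srebf2, -0.25 with Prrx1, -0.26 with Snai1 and -0.07 with Egr1. Ube2c was at 0.29, -0.49, -0.31 and -0.07 in the same order. Mki67, at 0.32 with a 95% interval of 0.04 to 0.60, was not called (adjusted p = 0.127), and neither was Cdk1. The S phase members called were Rrm1 (0.39) and Prim1 (0.34). After the GC trend of each library was removed, 10 members were called above 0, where 433 of 14185 genes were. Rrm1 (0.28, adjusted p = 0.0528) and Prim1 (0.23, adjusted p = 0.163) were then not called. Neither were Top2a (0.28, adjusted p = 0.0968) and Ttk (0.25, adjusted p = 0.137). The experiments were separate, so what differs between experiments other than the factor is part of the contrast.

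With Prrx1 and with Snai1, Ube2c was the only member called, and it was lower in both. It stood at 85.4, 75.7 and 77.3 CPM with Prrx1 and at 90.4, 89.3 and 90.4 CPM with Snai1, against 117, 109 and 109 CPM in the shared controls. Neither group overlapped the controls, and the log2 fold change was -0.49 with Prrx1 (standard error 0.06, adjusted p = 0.00159) and -0.31 with Snai1 (standard error 0.06, adjusted p = 0.031). Of all 13108 tested genes 1.05% were called lower with Prrx1 and 0.488% with Snai1. Nearly all its counts were assigned to 1 transcript, which held 78.8 ± 4.79 CPM with Prrx1 and 88.8 ± 1.13 CPM with Snai1, against 111 ± 3.40 CPM in the controls (SD, n = 3 each, scaled to the library total). Only 75% of the 31-mers of Ube2c occur in no other gene. The call held without each library in turn with Prrx1, and in 3 of 9 such fits with Snai1.

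**Figure D4:**
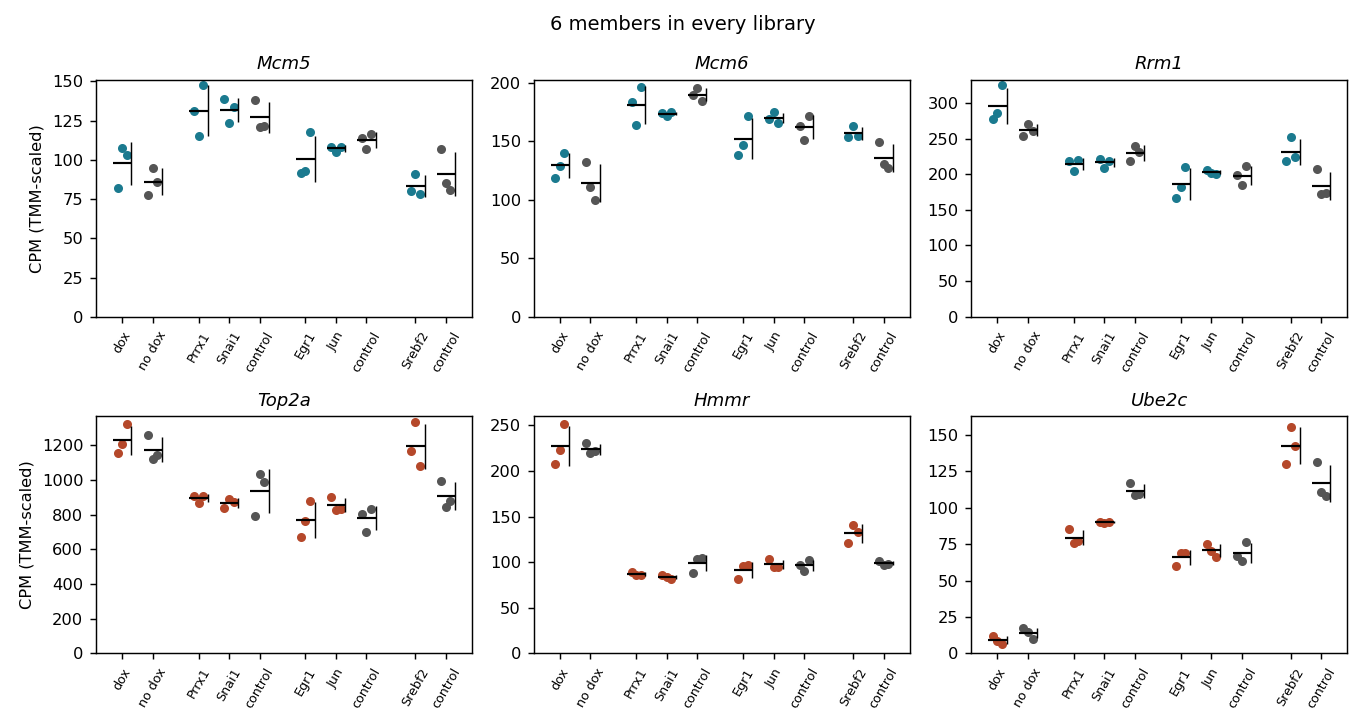
CPM of 6 members in each of the 30 libraries, scaled within each of the 4 experiments, which are set apart by gaps. Points are libraries, horizontal lines are means and vertical lines the SD of 3 libraries. Ube2c is lower with Prrx1 and Snai1 than in their controls, and Hmmr and Top2a are higher with Srebf2 than in its controls.

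Other members were not called against all 3 controls. Ccna2 stood at 152, 123 and 138 CPM with Prrx1 and at 140, 134 and 137 CPM with Snai1, against 163, 167 and 161 CPM in the controls. No library of either factor reached the controls, but the adjusted p was 0.0876 with Prrx1 and 0.0978 with Snai1 (log2 fold changes -0.25 and -0.26). Nusap1 stood at 45.3, 45.0 and 41.5 CPM with Snai1, against 52.9, 54.1 and 55.8 CPM in the controls (log2 fold change -0.30, adjusted p = 0.051). In all, 3 of 25 mitotic members with Prrx1 and 7 of 25 with Snai1 lay wholly below the controls, against 9.31% and 10.2% of all genes. The mitotic medians were -0.06 with Prrx1 and -0.09 with Snai1, and the S phase medians -0.02 and -0.01. Cdc20 was on the other side, at 0.19 in both (adjusted p = 0.237 and 0.255). The S phase members with the lowest unadjusted p were Cdt1, the helicase loader, with Prrx1 (-0.21, adjusted p = 0.211) and Tyms, thymidylate synthase, with Snai1 (-0.14, adjusted p = 0.332).

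Control replicate 1 of this experiment stood apart in its mitotic members. Its S phase members did not, at 2341 CPM in sum, against 2355 and 2294 CPM in the other controls. Its mitotic members summed to 3156 CPM, against 3632 and 3608 CPM in the other 2 controls, while Prrx1 libraries held 3215 to 3393 CPM and Snai1 libraries 3180 to 3297 CPM. Top2a, for example, stood at 794 CPM in that library, against 1036 and 987 CPM in the other controls. That library had the lowest mitotic sum of the controls, so leaving it out raises the reference level of these same members. Without control replicate 2 or 3 instead, 1 member was called with Prrx1 (68 of 13355 and 58 of 13359 genes lower) and 0 with Snai1. With all 3 controls, 138 of 13108 genes were called lower with Prrx1 and 64 with Snai1. Without control replicate 1 these were 1168 and 1394 of 13398 genes (8.72% and 10.4%). The change in calls was thus not particular to the mitotic members. In that fit 10 mitotic members were called lower with Prrx1 and 13 with Snai1. Hmmr was then at -0.26 with Prrx1 (adjusted p = 0.000943) and -0.32 with Snai1 (adjusted p = 0.000105), and Mki67 at -0.18 and -0.22. Cdc20 was called higher in both at 0.25, as was Aurka with Snai1 (0.22), where 11.0% and 12.4% of all genes were called higher. Pola1 was called lower in both (-0.25 with Prrx1 and -0.35 with Snai1), and Rrm1 with Prrx1 alone (-0.14). The 2 comparisons share these controls, so they are not independent. Mitochondrial transcripts made up 1.25 ± 0.22% of counts with Prrx1 and 1.24 ± 0.15% with Snai1, against 2.21 ± 0.24% in the controls (SD, n = 3 each), and their part was not tested. With Snai1 the median log2 fold change of all genes was -0.09 in the lowest of the 5 GC groups and 0.09 in the highest.

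**Figure D5:**
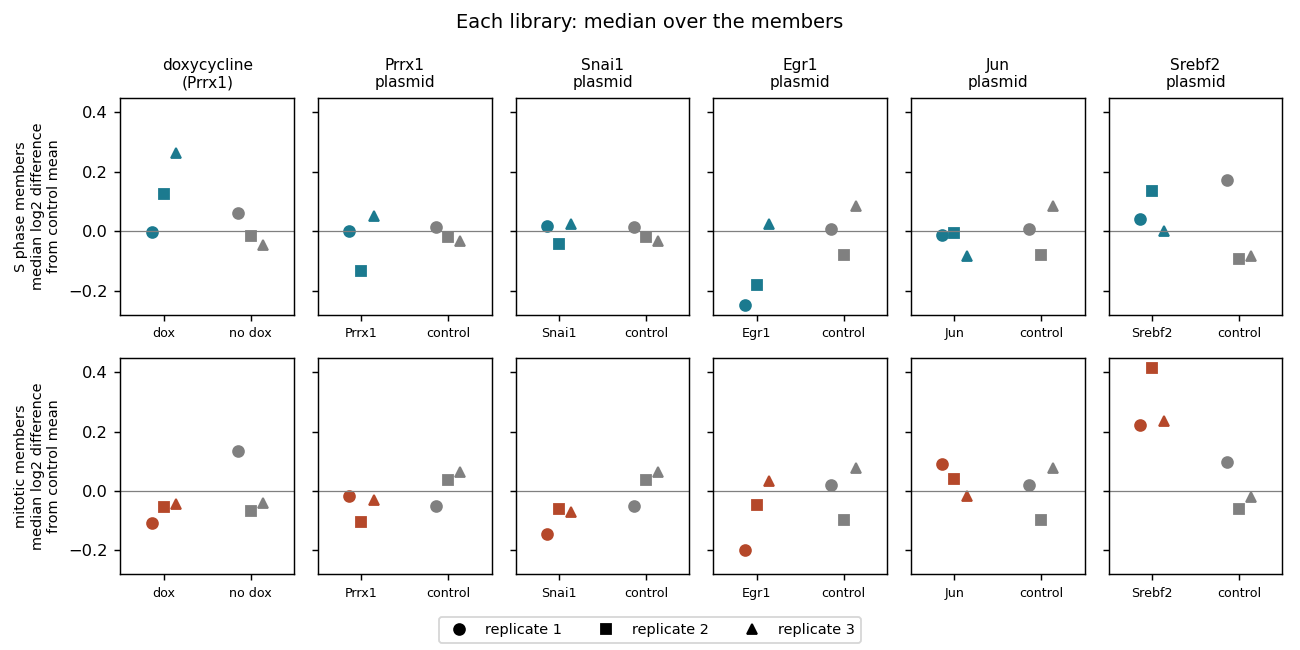
Median over the S phase members (top) and over the mitotic members (bottom) of the log2 difference of each library from the mean of its controls, in the 6 comparisons, with each treated group left of its control. All 3 Srebf2 libraries stand above their controls in the mitotic row, and with Egr1 replicate 3 stands above replicates 1 and 2 in both rows.

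With Egr1 no member was called (0 of 17 and 0 of 25, by edgeR and by DESeq2), against 0.325% of all 14481 genes called in either direction. All 17 S phase members had a log2 fold change below 0, from -0.28 to -0.03 with a median of -0.12, and 5 of them an unadjusted p under 0.05, where 4.94% of all genes were lower at that threshold. Values below 0 were not particular to this set, with 22 of 25 mitotic members also there. So were 39 of 40 other origin and fork genes and 44 of 47 other genes of the spindle, kinetochore and cytokinesis. The median of all genes was -0.01. Mcm7 stood at 159, 165 and 181 CPM with Egr1, against 194, 182 and 197 CPM in the controls. The highest Egr1 library was just under the lowest control (log2 fold change -0.18, adjusted p = 0.194, 69.1% unique 31-mers). Mcm5 stood at 91.4, 92.7 and 118 CPM with Egr1, against 114, 107 and 117 CPM in the controls, and 1 Egr1 library lay above all controls. That library was replicate 3, which also held the high epithelial marker level, and the part of that level in the result was not tested. Without it Mcm3, Mcm5 and Mcm7, all of the helicase ring, were called lower at -0.28, -0.29 and -0.23, where 0.240% of all genes were called lower. On the TPM scale all genes moved: limma on log2(TPM + 1) put the median of all genes at 0.15 and the S phase median at 0.01. The S phase median thus lay below that of all genes on both scales. On counts the mitotic median was -0.07, with 1 of 25 members at an unadjusted p under 0.05, Cdc20 (-0.11).

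With Jun no member was called either (0.967% of all genes, and 0 by DESeq2). The S phase median was -0.04 and the mitotic median 0.04, and 2 of 25 mitotic members and 0 of 17 S phase members had an unadjusted p under 0.05, against 15.3% of all genes. Cenpf stood at 111, 109 and 112 CPM with Jun, against 102, 89.0 and 95.8 CPM in the controls. The groups did not overlap (log2 fold change 0.21, adjusted p = 0.299). Cdc20 stood at 144, 142 and 151 CPM with Jun, against 157, 151 and 166 CPM in the controls (log2 fold change -0.12, adjusted p = 0.237). Mki67 had 245, 220 and 242 CPM with Jun, against 221, 192 and 215 CPM in the controls, and was not called (0.17, 95% interval -0.09 to 0.43). Jun set directly against Egr1 called 0 members by edgeR and by DESeq2 (0.449% of all genes), with 2 of 25 mitotic members higher at an unadjusted p under 0.05 (5.14% of all genes) and medians of 0.09 for S phase and 0.10 for mitotic members. Snai1 set directly against Prrx1 also called 0 members by both tools (0.252% of all genes), with 1 member of each set higher at an unadjusted p under 0.05 (2.33% of all genes).

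With doxycycline no member was called in the Prrx1-transduced cells (by edgeR or DESeq2), against 6.19% of all 13632 genes. In simulated data this fit recovered 0% of randomly drawn genes changed by 0.3 on the log2 scale, so smaller changes could be missed. The S phase median was 0.10 and the mitotic median -0.02. At an unadjusted p under 0.05 there were 5 mitotic members, all lower, and 0 S phase members, against 9.21% of all genes lower at that threshold. Ube2c stood at 11.8, 8.84 and 6.22 CPM with doxycycline, against 17.3, 14.4 and 10.2 CPM without. The groups overlapped, and the log2 fold change was -0.66 (95% interval -1.24 to -0.08, adjusted p = 0.197). Cdk1 stood at 49.2, 54.4 and 51.7 CPM with doxycycline, against 71.1, 60.2 and 59.8 CPM without, with no overlap (-0.30, adjusted p = 0.132). Ccnb2 (-0.51), Plk1 (-0.31) and Bub1b (-0.19) likewise lay wholly below the libraries without doxycycline, which makes 4 of 25 against 12.0% of all genes. In a fit of all 30 libraries, where the transduced cells borrow the spread of the transfections, Ube2c, Ccnb2, Cdk1, Plk1, Aurka and Bub1b were called lower, against 10.7% of all genes and 2.74% in the fit of the transduced libraries alone. Mki67 stood at 801, 710 and 752 CPM with doxycycline, against 842, 627 and 737 CPM without (0.04, 95% interval -0.19 to 0.27). Among S phase members Rrm1 had the lowest p, at 278, 285 and 325 CPM with doxycycline, against 254, 271 and 260 CPM without (0.18, adjusted p = 0.272). Rbl2, the pocket protein p130, was the 1 gene called among the other cell cycle lists (0.40, adjusted p = 0.0415). The doxycycline effect minus the Prrx1 transfection effect called 0 members by both tools (1.98% of all 15216 genes were above 0 and 2.01% below), with 1 S phase member and 1 mitotic member above 0 and 3 mitotic members below 0 at an unadjusted p under 0.05. At that threshold 7.34% of all genes were above 0 and 9.50% below, so these counts lie near those of all genes.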

How the data were processed

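Bulk mRNA of 30 libraries was analysed from tables of 118491 transcripts and added sequences each. The authors deposited estimated counts and TPM that per the submitters' processing notes come from kallisto 0.43.0 and build mm10; the annotation release and the strand setting are not given in the sources used here. Deposited estimated counts were summed per gene over GENCODE M21 symbols, rounded to whole numbers, and 36047 genes were obtained; 1673 targets without a match held 0.605 to 0.694% of counts. Deposited TPM values were summed the same way and were used for levels between genes.

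Each experiment was fitted with edgeR 4.0.16 (R 4.3.3; TMM scaling, filterByExpr at 10 counts, 15 in total, robust quasi-likelihood F test), with Benjamini-Hochberg adjustment over all tested genes and a prior count of 0.125. The fits were tested on simulated data, with 100 randomly drawn genes changed at each size. At a log2 change of 0.3 the share recovered was 0% with doxycycline, 6% with Prrx1 and 10% with Snai1. It was 36% with Egr1, 35% with Jun and 34% with Srebf2. At a log2 change of 1 it was 62 to 94%. These shares hold for genes drawn at random and were not measured for the members. The lack of a call does not show that a member was unchanged, and its own interval, where given, says how large a change remains possible. With Srebf2 the intervals of Cdk1, Cdc20, Rrm2 and E2f1 exclude a change of 0.3 in either direction. That of Mcm5 does not exclude a fall of 0.3. Alternatives were DESeq2 1.42.0, its size factors, limma 3.58.1 on log2(TPM + 1) and log2(TPM + 0.1) for genes of mean TPM of at least 1, no filter, a filter of 5 CPM in 3 libraries, other sets of libraries, a block for the replicate number, each library left out and, added after seeing the data, a GC trend removed per library (loess, span 0.3). Most named members with under 90% of 31-mers found in no other gene are given with that share. It was 73.3% for Kif20a, 85.2% for Plk1 and 89.3% for Tyms, which are given without it. GC content and length are those of the gene's transcripts in GENCODE M21.

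The members and lists were chosen with earlier results of these data known. The genes named were Mcm5, Pcna, Rrm2, E2f1, Mki67, Top2a, Ccnb1, Cdk1 and Ube2c where they bear on a comparison, up to 6 called members in each direction and set with the largest change, the 2 of lowest unadjusted p where none was called, and up to 4 called genes of each other list; others were named after their values were seen.

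Replicate numbers of the same value were checked for pairing: of 8 pairs of groups, 0 had every correlation of same-numbered libraries over 0.1 (range -0.18 to 0.09), so the block is an alternative only.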

Additional observations from a re-analysis of the deposited data

Results flagged for a closer look

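The effect of Srebf2 differed from the mean effect of the other 4 transfections, by a test of the difference itself, in 14 members, all of them higher with Srebf2. The log2 differences of mitotic members were 0.39 for Anln, 0.47 for Bub1, 0.53 for Ccna2, 0.82 for Cenpk, 0.53 for Hmmr, 0.45 for Kif11, 0.37 for Kif23, 0.49 for Nusap1, 0.41 for Top2a, 0.29 for Tpx2, 0.38 for Ttk and 0.49 for Ube2c. Those of S phase members were 0.34 for Prim1 and 0.39 for Rrm1. After the GC trend of each library was removed, 10 of these members were still called, where 433 of 14185 genes were above 0. Prim1, Rrm1, Top2a and Ttk were then not called. Part of the difference in Ccna2 and Ube2c lay in lower values with Prrx1 and Snai1. The contrast was chosen after the Srebf2 result was seen, and what differs between the experiments besides the factor cannot be told apart from it.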

How the results depend on the processing

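Members called with no filter on low counts numbered 1 with doxycycline, 2 with Prrx1 and 3 with Snai1, and with the stricter filter or DESeq2 size factors 2 with Snai1. With no filter, 613 of 23575 genes were called higher and 713 lower with doxycycline. With Prrx1 these were 354 and 261 of 22728 genes, and with Snai1 273 and 148. With Snai1 they were 164 and 70 of 10338 under the stricter filter, and 165 and 69 of 13108 with DESeq2 size factors. The DESeq2 test called 2 members with Prrx1 and 3 with Snai1. It called 398 of 13105 genes higher and 271 lower with Prrx1, and 355 of 11072 higher and 187 lower with Snai1. In 1 fit of all 30 libraries 6 were called with doxycycline, 0 with Snai1, 9 with Srebf2 and 1 for the doxycycline effect minus the Prrx1 effect. Of the 16067 genes in that fit 988 were called higher and 1717 lower with doxycycline, and 188 and 70 with Snai1. With Srebf2 these were 244 and 325, and for the difference 709 above 0 and 1191 below. With only the 2 groups compared, 0 were called with Snai1 and 1 with Jun. There 34 of 12734 genes were called higher and 28 lower with Snai1, and 172 of 13790 higher and 132 lower with Jun. With limma on either TPM scale 2 were called with Jun, 10 with Srebf2 and 9 for the Srebf2 difference. On log2(TPM + 1), 2176 of 12412 genes were called higher and 48 lower with Jun, a larger share than among the members. With Srebf2 these were 660 and 325 of 12022 genes. For the Srebf2 difference 396 of 12243 genes were above 0 and 1069 below. Removal of the GC trend left 13 with Srebf2, all higher, where 483 of 12715 genes were called higher. With the replicate block as well it left 12 with Srebf2, all higher, and 2 with Prrx1, both lower. There 441 of 12715 genes were called higher with Srebf2 and 329 of 13097 lower with Prrx1. The replicate block alone gave 22 with Srebf2 and 1 each with Prrx1 and Snai1, and changed no other count of members by over 1.5 times. With that block 1129 of 12728 genes were called higher with Srebf2. Of 13108 genes 132 were called lower with Prrx1 and 77 with Snai1.

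Small medians changed sign. On the TPM scale, by limma on log2(TPM + 1), the median of all genes moved to 0.148 with Egr1 and 0.145 with Jun. The Egr1 and Jun medians of the members there are to be read against these. The mitotic median there was 0.09 with Egr1, against -0.07 on counts, and 0.18 or 0.19 with Jun. The S phase median there was 0.01 with Egr1, against -0.12 on counts, 0.14 with Jun, against -0.04, and -0.07 with Snai1. The mitotic median with doxycycline was 0.03 or 0.04 there, against -0.02 on counts. The cause was not tested.

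With 1 library left out, members called ranged from 0 to 1 with doxycycline, 1 to 13 with Prrx1, 0 to 16 with Snai1, 0 to 3 with Egr1, 11 to 25 with Srebf2 and 10 to 23 for the Srebf2 difference. Mitotic medians ranged from -0.16 to -0.03 with Prrx1, from -0.20 to -0.05 with Snai1, from -0.02 to 0.07 with Jun, from -0.10 to 0.02 with doxycycline and from -0.12 to 0.09 for the doxycycline effect minus the Prrx1 effect. S phase medians ranged from -0.04 to 0.04 with Snai1, from -0.08 to 0.01 with Jun, from -0.07 to 0.04 for Snai1 against Prrx1, from 0.05 to 0.17 for Jun against Egr1 and from 0.07 to 0.25 for the Srebf2 difference. The 13, 16 and 23 members came without control replicate 1 of Prrx1 and Snai1. There 1473 of 13398 genes were called higher and 1168 lower with Prrx1, and 1664 and 1394 with Snai1. For the Srebf2 difference 1619 of 14703 genes were above 0 and 1672 below. With Srebf2 415 of 12953 genes were called higher at 11 members and 806 of 12947 at 25. With doxycycline 206 to 632 genes were called higher and 128 to 618 lower. With Egr1 36 of 14973 genes were lower at 3 members. Intervals rest on 3 libraries per group, and the transduced libraries were the shallowest.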

Other observations

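Levels of some members differed between the transduced cells without doxycycline and the control-plasmid cells, which were separate experiments and cannot be told apart from batch. Ube2c averaged 22.2 TPM in the transduced cells without doxycycline, against 122 to 217 TPM in the 3 groups of control-plasmid cells. Mki67 averaged 109 TPM, against 26.4 to 32.5 TPM, and Mcm2 averaged 227 TPM, against 54.1 to 70.8 TPM. The pseudogene Pcna-ps2, which shares 23.3% of the 31-mers of Pcna, averaged 96.0 CPM with doxycycline and 92.7 CPM without, against 1.57 to 7.93 CPM in the groups of the other experiments.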
